A study of Mus musculus with 8 samples.

Results

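Tight junction and epithelial adhesion genes were followed in the newborn mouse organ of Corti, which carries the sound-sensing hair cells of the cochlea. The set was defined by gene symbol and held 37 of the 41079 genes counted: 17 claudins, 4 MARVEL-domain proteins, the angulins Ildr1 and Lsr, 3 junctional adhesion molecules, 5 cytoplasmic scaffold proteins, the cadherins Cdh1 and Cdh2 and 4 nectins. Total RNA was sequenced after removal of ribosomal RNA in 4 libraries labelled Prox1 knock-out (Emx2-cre; floxed-Prox1) and 4 wildtype libraries, all from micro-dissected tissue at postnatal day 0. Cre follows Emx2, a gene active in the developing cochlear epithelium. The labels give no strain, do not say whether wildtype mice carried Cre or a floxed allele, and do not say how many animals went into a library, so the spread behind each p-value is that between these libraries and may be technical. The libraries held 29908965 to 32613549 counts in the group labelled knockout and 32863533 to 42318233 in wildtype, and the 37 genes took 0.206 to 0.220% of the counts in the libraries labelled knockout and 0.216 to 0.238% in wildtype.

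Tight junctions seal the upper border of epithelial cells. Claudins form the strands and decide which ions pass between cells, occludin and its relatives join them, and tricellulin with the angulins closes the points where 3 cells meet. Scaffold proteins such as ZO-1 tie the strands to actin, while cadherins and nectins hold the cells together just below. In the organ of Corti this barrier separates potassium-rich endolymph from perilymph, and loss of Cldn14, Marveld2 or Ildr1 in people, or of Cldn9, Cldn11 or Ocln in mice, causes deafness.

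Counts of Prox1 itself were higher, not lower, in the group labelled knockout, with 147, 137, 138 and 134 CPM (counts scaled by effective library size) against 109, 114, 106 and 115 CPM in wildtype (log2 fold change 0.33 ± 0.05 SE; adjusted p = 0.0298 by the edgeR quasi-likelihood test, Benjamini-Hochberg adjusted). Counts per gene cannot tell whether the floxed exons are gone, so they neither bear out nor contradict the label. Directions below therefore compare the libraries as labelled. Markers of the tissue were counted throughout: the sum of 15 hair cell genes was 672 to 716 CPM under the knockout label and 642 to 764 CPM in wildtype, and that of 16 supporting cell genes was 9683 to 10508 CPM under the knockout label and 9883 to 11075 CPM in wildtype. Abundant genes carried these sums and say little about the rest. Tecta averaged 5684 CPM under the knockout label and 5739 CPM in wildtype, and Myo6 averaged 251 and 260 CPM. The stria vascularis is the ion-pumping epithelium of the lateral wall. The mean log2 CPM of its 11 marginal cell genes was 4.12, 4.02, 4.01 and 4.07 in the libraries labelled knockout and 4.94, 4.34, 4.73 and 4.21 in wildtype. The wildtype libraries 1 and 3 were the highest, and values without them are given for the genes described in full where they differ by over 1.5 times. These libraries were also the highest of all for Cdh1, Cldn11, Cldn4, Tjp1 and Jam2 themselves. Leaving them out therefore had to raise those log2 fold changes, and only the wildtype libraries 2 and 4 remain. In the tissue around the epithelium, the log2 fold change was below 0 for 12 of 12 periotic mesenchyme genes (median -0.16) and 9 of 10 endothelial genes (-0.17). It was also below 0 for 6 of 7 red cell genes (-0.41), against 50% of all tested genes. In edgeR's test 4, 4 and 3 of these were lower at an unadjusted p under 0.05, against 2.78% of all tested genes. None passed at an adjusted p under 0.05. The endothelial gene Emcn was higher at the unadjusted level (log2 fold change 0.20 ± 0.09 SE). Other lists leaned the same way, with 14 of 18 epithelial, 10 of 14 hair cell and 8 of 10 Schwann and glia genes below 0.

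Upstream sequences were printed for 4 genes of the set: the neighbouring genes Cldn3 and Cldn4, Cldn6, one of the most abundant claudins, and Nectin3, whose groups did not overlap. Each line gives the 250 bases before the RefSeq transcription start, 5′ to 3′. Capitals mark the E-box CAGGTG or its reverse complement CACCTG, the sequence through which Snail and Zeb repressors are known to act on epithelial adhesion genes, and the GC box GGGCGG or its reverse complement CCGCCC. The motifs did not overlap in these sequences.

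Cldn3 (GRCm38.p6, chr5:134985964-134986213, plus strand): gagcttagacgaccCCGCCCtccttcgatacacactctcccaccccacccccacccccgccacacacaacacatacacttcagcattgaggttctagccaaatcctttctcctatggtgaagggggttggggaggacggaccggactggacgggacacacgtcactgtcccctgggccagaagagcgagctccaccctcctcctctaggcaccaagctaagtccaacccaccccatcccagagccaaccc

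Cldn4 (GRCm38.p6, chr5:134946935-134947184, minus strand): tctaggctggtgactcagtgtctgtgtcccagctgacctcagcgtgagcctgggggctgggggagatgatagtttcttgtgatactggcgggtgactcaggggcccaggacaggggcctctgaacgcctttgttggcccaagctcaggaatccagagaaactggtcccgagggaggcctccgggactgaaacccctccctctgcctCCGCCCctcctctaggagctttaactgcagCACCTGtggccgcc

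Cldn6 (GRCm38.p6, chr17:23679115-23679364, plus strand): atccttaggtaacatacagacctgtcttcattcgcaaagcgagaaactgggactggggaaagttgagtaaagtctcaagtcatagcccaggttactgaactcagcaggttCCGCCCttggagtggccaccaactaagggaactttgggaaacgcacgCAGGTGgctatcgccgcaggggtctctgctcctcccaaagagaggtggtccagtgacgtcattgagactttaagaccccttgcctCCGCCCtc

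Nectin3 (GRCm38.p6, chr16:46496968-46497217, minus strand): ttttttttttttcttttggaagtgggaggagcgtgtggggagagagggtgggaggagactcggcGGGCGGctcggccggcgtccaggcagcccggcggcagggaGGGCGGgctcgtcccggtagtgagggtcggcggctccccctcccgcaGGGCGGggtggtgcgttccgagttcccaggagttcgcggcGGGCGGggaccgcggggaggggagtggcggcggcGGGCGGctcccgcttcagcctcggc

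Cldn3 held 0 E-boxes and 1 GC box, Cldn4 held 1 and 1, Cldn6 held 1 and 2, and Nectin3 held 0 and 5. RefSeq upstream sequence matched 28 of the 37 genes, with 39 starts, and Cdh1 and Cldn9 were not among them. An E-box lay in 28.2% of these 39 windows and in 17.2% of all 32851 windows of the same length, and a GC box in 61.5% and in 32.7%. The windows were not matched for expression level, and several starts of a gene count separately. These are letter matches and do not show that a factor binds.

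Levels between genes were compared as CPM per kilobase (kb) of exon, since counts grow with transcript length. Cdh1 had the highest mean level of the set, followed by Cldn9, Cldn3, Tjp1 and Cldn6. The means of these 5 genes over the 8 libraries lay between 40.5 and 66.6 CPM per kb, against a median of 4.46 CPM per kb over 17147 tested genes with an exon length, and 4.23% of those genes were higher than Cldn6, the lowest of the 5. The library ranges of Cdh1 and Cldn9 overlapped, with Cldn9 the higher in library 1 labelled knockout, and so did those of Cldn3, Tjp1 and Cldn6, so the order within each of these groups is not firm. Of the 37 genes, 35 passed the filter on low counts and were tested, and 27 of these lay above the median of tested genes. Between Nectin4 at 2.15 CPM per kb and the next gene, Cldn1 at 0.304, the levels dropped by a larger fold than between any neighbours higher in the order.

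**Figure D1:**
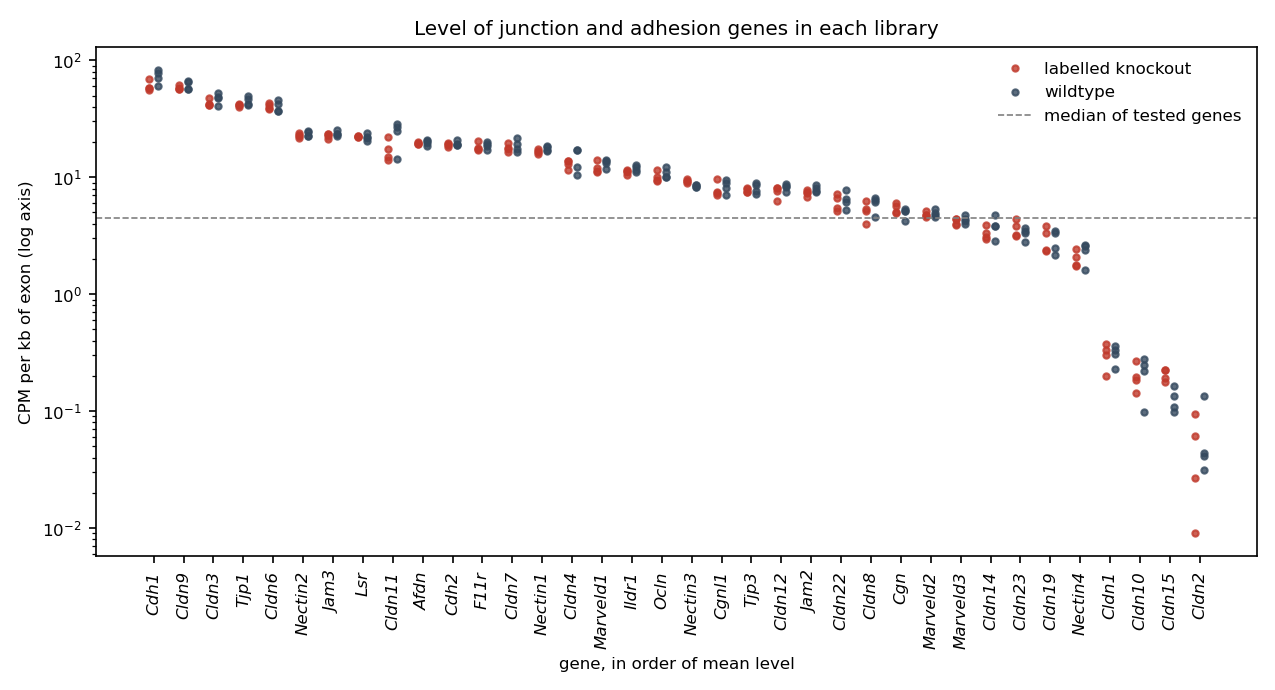
Level of 36 genes in each library as CPM per kb of exon on a log axis, with libraries labelled knockout in red on the left of each gene and wildtype in dark blue on the right; the dashed line is the median of tested genes, 4.46 CPM per kb. Cldn18, with 0 counts, is not drawn. The libraries lie close together for genes such as Afdn and spread widely for Cldn2, from 0.009 to 0.135 CPM per kb. Cldn1, Cldn10, Cldn15 and Cldn2 form a low group at the right.

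Among the 17 claudins of the set, Cldn9, Cldn3 and Cldn6 were the most abundant. Together they made up 64.8 ± 1.89% of the summed level per kb of these 17 genes in the libraries labelled knockout and 63.2 ± 2.77% in wildtype (SD, n = 4 per group). Claudins outside the set, such as Cldn5, were not in the sum. Cldn9 alone took 26.6 ± 0.54% in the libraries labelled knockout and 26.0 ± 1.40% in wildtype. Cldn2, Cldn10 and Cldn15 form ion-permeable pores in other epithelia, and the highest share among them was that of Cldn15, with 0.0938% in the libraries labelled knockout and that of Cldn10, with 0.0873%, in wildtype. Cldn2 had 1 to 10 counts per library labelled knockout and 4 to 15 per wildtype library, and it was not tested. Cldn18, a claudin of stomach and lung, had 0 counts in all 8 libraries, which allows up to 0.102 CPM in the shallowest library (3 counts per library, counting error only).

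No gene of the set passed the test between the groups. Of 35 tested genes, 0 were higher and 0 lower at an adjusted p under 0.05 in edgeR's quasi-likelihood test, against 0.034% and 0.0583% of all 20581 tested genes (0.0923% in either direction), and with so low a background a count of 0 is no result about these genes. DESeq2 and limma-voom also called 0 of them. The authors' deposited DESeq2 table called 0 of the 34 with an adjusted p, the lowest being 0.297. Its log2 fold changes equal those of DESeq2 here, such as -0.472 for Cldn11 in both, so it is no separate result. At an unadjusted p under 0.05 there were 4 (11.4%, against 7.55% of all tested genes, 4.76% higher and 2.78% lower): Nectin3 and Cldn15 with higher values and Cdh1 and Cldn11 with lower values in the libraries labelled knockout. DESeq2 gave 2 and limma-voom 3 at that level. Leaving out wildtype library 2 gave 10 of 35 (28.6%, against 13.9% of all genes tested then), and leaving out library 4 labelled knockout gave 9 (25.7%, against 14.7%), again with 0 after adjustment. The log2 fold change lay below 0 in 28 of the 35 and above 0 in 7, with a median of -0.07 against 0.00 over all tested genes. That median was -0.03 without the wildtype libraries 1 and 3, with 22 of 35 below 0. The log2 fold change of 26 of the 35 genes then moved by over 1.5 times or changed sign. The share over all tested genes was not computed, so this count shows nothing particular to the set.

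The size of change that these libraries leave room for was small for most of the set. The 95% interval of the fold change lay within 1.5-fold either way for 32 of the 35 genes (91.4%), against 67.2% of all tested genes. The other 3 were Cldn10, Cldn11 and Cldn15. On the log2 scale the interval of Cdh2 ran from -0.14 to 0.08, that of Afdn from -0.13 to 0.09 and that of Lsr from -0.11 to 0.14. The width did not simply follow the level. Cdh1, with the highest level of the set, had an interval from -0.49 to -0.08, wider than that of the less abundant Marveld2 (-0.19 to 0.15).

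**Figure D2:**
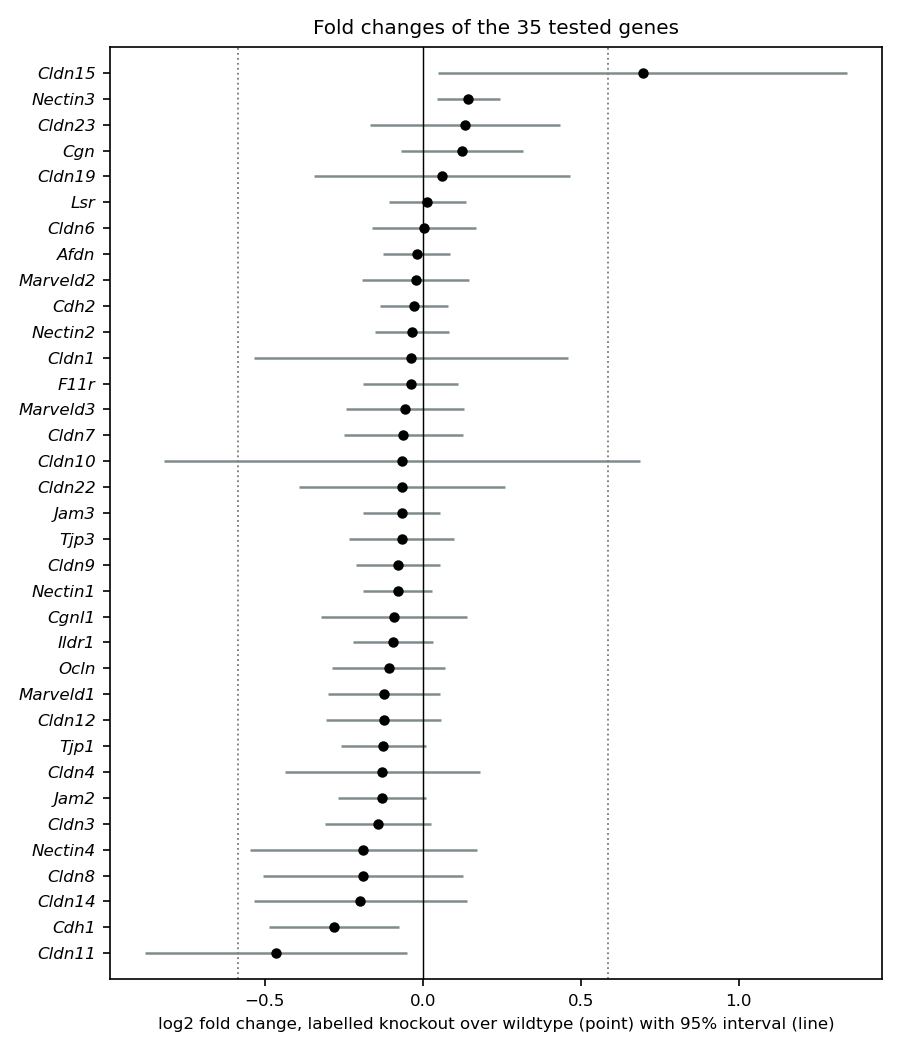
Log2 fold change of the 35 tested genes, libraries labelled knockout over wildtype, with 95% intervals as lines; dotted lines mark 1.5-fold either way. The points run from -0.46 for Cldn11 to 0.70 for Cldn15, and 28 of 35 lie left of 0.

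Among the sealing claudins, Cldn9, which protects hair cells from potassium at their base, had 83.5, 82.8, 81.9 and 88.9 CPM in the libraries labelled knockout and 82.9, 82.9, 96.7 and 93.7 CPM in wildtype. The groups overlapped, with the wildtype libraries 3 and 4 on top (log2 fold change -0.08 ± 0.06 SE). Its chromosomal neighbour Cldn6, a claudin of embryonic epithelia, had 73.8, 67.8, 70.8 and 66.3 CPM against 63.4, 72.5, 79.5 and 62.9 CPM in wildtype. All 4 libraries labelled knockout lay inside the wildtype range, and the log2 fold change was 0.00 ± 0.08 (SE), and 0.04 without the wildtype libraries 1 and 3. Cldn3, a broad epithelial barrier claudin, had 53.4, 52.1, 51.8 and 59.7 CPM against 60.1, 51.7, 66.5 and 61.2 CPM in wildtype. Wildtype library 2 lay below each library labelled knockout and the other 3 wildtype libraries above each, with a log2 fold change of -0.14 ± 0.08 (SE; adjusted p = 0.651 in edgeR's test), and of -0.06 without the wildtype libraries 1 and 3.

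Cldn4, the neighbour of Cldn3 and also a barrier claudin, varied more within wildtype than between groups, with 25.1, 20.8, 23.5 and 25.0 CPM in the libraries labelled knockout and 31.1, 19.1, 30.8 and 22.2 CPM in wildtype (log2 fold change -0.13 ± 0.14 SE). Without the high wildtype libraries 1 and 3 its log2 fold change was 0.19. Cldn7, a claudin of epithelial side membranes, and Cldn8, a barrier claudin of kidney ducts, overlapped between the groups with log2 fold changes of -0.06 ± 0.09 and -0.19 ± 0.15 (SE). Without the same libraries that of Cldn7 was 0.01 and that of Cldn8 -0.03. Cldn14, the human deafness gene needed for outer hair cell survival, had 6.61, 7.10, 6.31 and 8.29 CPM against 8.12, 6.01, 8.23 and 10.2 CPM in wildtype. Wildtype library 2 was again the lowest of the 8, and the log2 fold change was -0.20 ± 0.16 (SE; adjusted p = 0.716 in edgeR's test). Cldn1, the skin barrier claudin, was rare here at 1.45 ± 0.36 and 1.49 ± 0.27 CPM in the libraries labelled knockout and in wildtype (SD, n = 4 per group).

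Cldn11 builds the tight junctions of stria basal cells and of myelin, and it showed the lowest fold change of the set. It had 26.5, 27.6, 32.8 and 41.1 CPM in the libraries labelled knockout and 52.9, 26.9, 50.6 and 46.5 CPM in wildtype. Wildtype library 2 lay with the lower libraries labelled knockout, and the other 3 wildtype libraries lay above all of those. The log2 fold change was -0.46 ± 0.19 (SE; adjusted p = 0.647 in edgeR's test), between -0.64 without wildtype library 2 and -0.37 without wildtype library 1. Stria markers had mostly lower values as well, with a median log2 fold change of -0.15 over the marginal and -0.69 over the intermediate cell list. By edgeR's test 0 of them were called, and 5 of 11 and 4 of 8 tested were lower at an unadjusted p under 0.05. Of all tested genes 2.78% were. Within wildtype, library 4 had the lowest mean log2 CPM of both lists (4.21 and 1.96), and library 2 had the lowest Cldn11. The 11 marginal cell genes summed to 1387 to 1490 CPM against 1448 to 1722 CPM in wildtype, the 10 intermediate cell and melanocyte genes to 60.8 to 77.1 CPM against 77.4 to 97.1 CPM in wildtype, and 0 of these genes were at 0 in all libraries. With the mean log2 CPM of both stria lists as a covariate the log2 fold change of Cldn11 was -0.22 ± 0.27 (SE). With that of 18 epithelial genes as a covariate it was -0.29 ± 0.13 (SE), and without the wildtype libraries 1 and 3 it was -0.19. The marginal cell mean did not overlap between the groups (4.01 to 4.12 against 4.21 to 4.94 in wildtype). The part of a stria covariate, here and below, therefore cannot be told apart from that of the label. In bulk tissue, fewer cells of a type and less RNA per cell cannot be told apart.

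Cldn19, a claudin of Schwann cells, varied between libraries of the same group. It had 10.1, 14.3, 10.1 and 16.4 CPM in the libraries labelled knockout and 9.23, 14.1, 10.5 and 14.9 CPM in wildtype, so the libraries numbered 2 and 4 were the higher ones in both groups (log2 fold change 0.06 ± 0.19 SE, and -0.19 without the wildtype libraries 1 and 3). The mean log2 CPM of 10 Schwann and glia genes was also higher in these libraries, at 5.82, 5.96, 5.81 and 6.005 in the libraries labelled knockout and 5.90, 5.98, 5.85 and 6.12 in wildtype. The part of these cells in the Cldn19 level was not tested. Cldn19 was described in full because of this pattern, after its values were seen.

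Cldn15, a pore-forming claudin of the gut, had the highest fold change and rests on few reads. It had 12, 16, 16 and 12 counts in the libraries labelled knockout and 11, 10, 12 and 7 in wildtype, that is 0.407, 0.476, 0.479 and 0.378 CPM under the knockout label against 0.285, 0.230, 0.351 and 0.209 CPM in wildtype. The groups did not overlap in CPM, as was the case for 2 of 35 genes of the set (5.71%, against 3.69% of all tested genes, 2.07% higher and 1.62% lower). The log2 fold change was 0.70 ± 0.30 (SE; adjusted p = 0.647 in edgeR's test), and it did not pass the stricter filter on counts. Cldn10, another pore-forming claudin, had 0.513 ± 0.134 and 0.546 ± 0.204 CPM in the libraries labelled knockout and in wildtype (SD, n = 4 per group), and its interval ran from -0.82 to 0.69 on the log2 scale. Cldn12, an atypical claudin linked to calcium passage, and Cldn23 had log2 fold changes of -0.12 ± 0.08 and 0.13 ± 0.14 (SE). Cldn22, at -0.07 ± 0.15, is uncertain: all of its exon length lies under Wwc2 on the opposite strand in the GENCODE M21 annotation, 44.7% of its 50-base words also occur in Cldn24, and whether counting used strand is not stated.

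**Figure D3:**
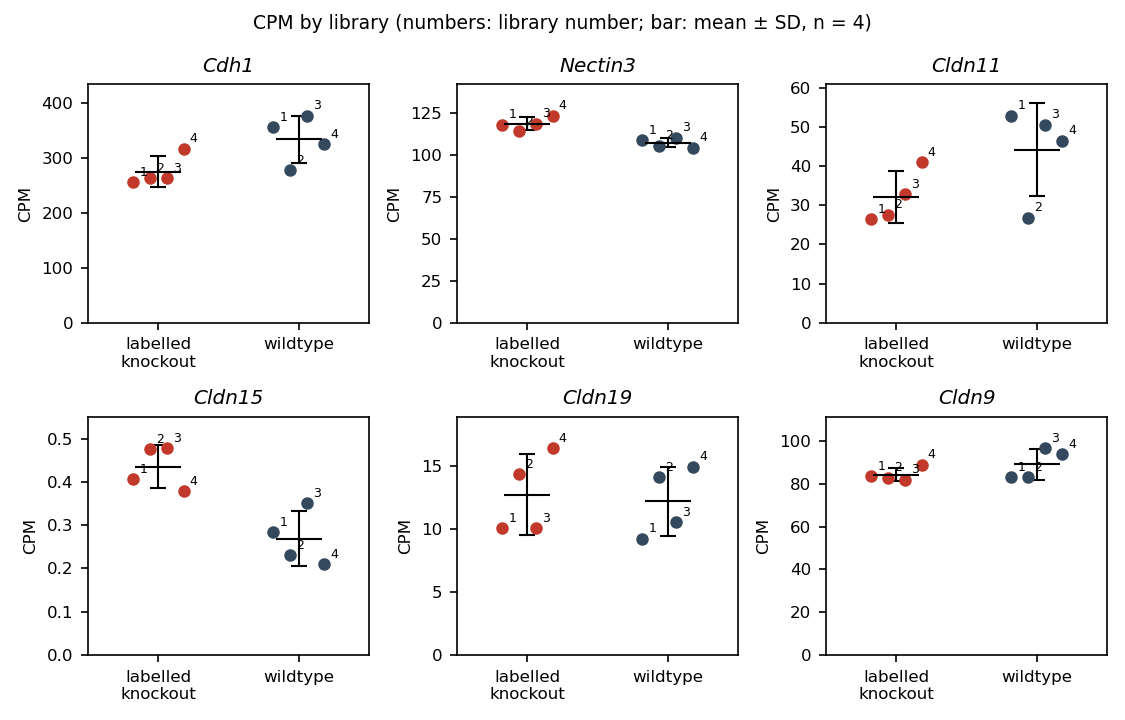
CPM of 6 genes in each library, with libraries labelled knockout in red on the left and wildtype in dark blue on the right, library numbers beside the points and mean ± SD as bars (n = 4 per group); axes start at 0. The groups of Nectin3 and Cldn15 do not overlap, Cdh1 and Cldn11 have wildtype library 2 among the lower values, and Cldn19 is high in the libraries numbered 2 and 4 of both groups.

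The transmembrane partners of the claudins overlapped between the groups, and all 4 had a log2 fold change below 0. Ocln, which encodes occludin, had 39.9, 42.2, 39.2 and 48.3 CPM in the libraries labelled knockout and 42.6, 42.5, 51.3 and 46.6 CPM in wildtype, and the groups overlapped (log2 fold change -0.11 ± 0.08 SE). Marveld2, its neighbour on the chromosome and the gene of tricellulin, had 15.6, 16.2, 15.9 and 17.4 CPM against 15.4, 16.0, 18.2 and 16.6 CPM in wildtype. Each library labelled knockout lay within the wildtype range, and the log2 fold change was -0.02 ± 0.08 (SE), with an interval from -0.19 to 0.15. Marveld3, the remaining tight junction MARVEL protein, had -0.06 ± 0.09 (SE). Marveld1, a related membrane protein, had 51.8, 48.9, 47.8 and 60.8 CPM against 59.4, 51.1, 60.3 and 57.2 CPM in wildtype, with library 4 labelled knockout as the highest of the 8 (-0.12 ± 0.08 SE). Without the wildtype libraries 1 and 3, Ocln was at -0.07, Marveld2 at -0.00347 and Marveld1 at -0.05.

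The angulins recruit tricellulin to the points where cells meet. Ildr1, the angulin whose loss causes deafness, had 44.9, 47.4, 49.0 and 49.4 CPM in the libraries labelled knockout and 49.4, 47.9, 54.4 and 52.2 CPM in wildtype. The ranges overlapped, with a log2 fold change of -0.10 ± 0.06 (SE; adjusted p = 0.671 in edgeR's test). Lsr, another angulin, had 48.7, 47.6, 49.4 and 48.0 CPM against 47.4, 44.6, 51.8 and 48.3 CPM in wildtype, the libraries labelled knockout again lying within the wildtype range (0.01 ± 0.06 SE, and 0.06 without the wildtype libraries 1 and 3). Per kb, Lsr was higher than Ildr1 in all 8 libraries, at 22.3 ± 0.37 against 11.1 ± 0.48 CPM per kb in the libraries labelled knockout and 22.1 ± 1.36 against 11.9 ± 0.68 CPM per kb in wildtype (SD, n = 4 per group). The antisense transcript Gm4673 covers 43.6% of the exon length of Lsr in the annotation, so part of its reads could belong to it.

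Of the junctional adhesion molecules, immunoglobulin-type proteins that help to set up polarity, Jam3 had 71.5, 75.3, 68.1 and 75.4 CPM in the libraries labelled knockout and 81.9, 72.5, 74.3 and 75.3 CPM in wildtype (log2 fold change -0.07 ± 0.06 SE). The groups overlapped, and 36.2% of its exon length lies under the antisense transcript Gm48796. Jam2 had 40.6, 43.9, 45.2 and 46.9 CPM against 49.1, 45.7, 52.3 and 46.4 CPM in wildtype. Its groups overlapped by library 4 labelled knockout alone, which exceeded the wildtype libraries 2 and 4 (-0.13 ± 0.06 SE; adjusted p = 0.647 in edgeR's test). F11r, the epithelial member also called JAM-A, had -0.04 ± 0.07 (SE). Without the wildtype libraries 1 and 3, Jam3 was at -0.03, Jam2 at -0.06 and F11r at 0.03.

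Among the scaffolds, Tjp1, which encodes ZO-1, had 313, 323, 326 and 328 CPM in the libraries labelled knockout and 363, 333, 387 and 323 CPM in wildtype. Wildtype library 4 fell inside the range of the libraries labelled knockout and the other 3 lay above it, for a log2 fold change of -0.13 ± 0.06 (SE; adjusted p = 0.647 in edgeR's test). With the stria lists as a covariate this value was 0.01, with the limit given for Cldn11. Without the wildtype libraries 1 and 3 it was -0.03. Tjp1 exceeded Tjp3, the gene of ZO-3, between 4.65 and 6.49 times per kb in every library. Afdn, which encodes afadin and links nectins to actin, had 206, 197, 198 and 201 CPM against 208, 191, 213 and 201 CPM in wildtype, with all libraries labelled knockout inside the wildtype range (-0.02 ± 0.05 SE, and 0.03 without the wildtype libraries 1 and 3). Tjp3, Cgn (cingulin, which binds ZO proteins and myosin) and its relative Cgnl1 had -0.07 ± 0.08, 0.12 ± 0.09 and -0.09 ± 0.11 (SE). The Cgn value is uncertain, since 17.2% of its 50-base words also occur in other genes, most of them in BC021767.

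The epithelial cadherins divide the organ of Corti, E-cadherin (Cdh1) being the cadherin of its outer side and N-cadherin (Cdh2) that of its inner side. Cdh1 had 255, 264, 263 and 317 CPM in the libraries labelled knockout and 356, 278, 377 and 326 CPM in wildtype. Library 4 labelled knockout lay above wildtype library 2, and the other 3 libraries labelled knockout lay below all of wildtype. Cdh1 averaged 275 ± 28.5 CPM under the knockout label and 334 ± 42.9 CPM in wildtype (SD, n = 4 each), and its log2 fold change was -0.28 ± 0.09 (SE; adjusted p = 0.581 in edgeR's test). Its value was -0.36 when either wildtype library 2 or library 4 labelled knockout was left out. It was -0.14 without the wildtype libraries 1 and 3, -0.13 with the stria lists as a covariate and -0.20 with the mean log2 CPM of 18 other epithelial genes as a covariate. The wildtype libraries 1 and 3 were the highest in Cdh1 itself, so the first of these values had to lie nearer to 0. Cdh2 had 157, 147, 158 and 151 CPM against 152, 154, 166 and 152 CPM in wildtype, overlapping throughout (-0.03 ± 0.05 SE, and -0.00212 without the wildtype libraries 1 and 3). Per kb, Cdh1 exceeded Cdh2 by 2.87, 3.17, 2.93 and 3.71 times in the libraries labelled knockout and by 4.13, 3.18, 4.00 and 3.77 times in wildtype, so the ratio overlapped between the groups as well.

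Nectins bind across the boundary between cell types, and in the auditory epithelium nectin-1 of hair cells pairs with nectin-3 of supporting cells to form the checkerboard of the sensory rows. Nectin3 had 118, 114, 119 and 123 CPM in the libraries labelled knockout and 109, 105, 110 and 104 CPM in wildtype. Each library labelled knockout lay above each wildtype library, the other case of groups that did not overlap. The log2 fold change was 0.14 ± 0.05 (SE), a 1.11-fold difference with an interval from 1.03- to 1.18-fold, and it did not pass (adjusted p = 0.569 in edgeR's test). It lay between 0.12 and 0.19 under the alternatives, 0.19 being the value with the stria lists as a covariate. Nectin1 had 97.9, 89.9, 92.5 and 94.97 CPM against 102, 94.8, 104 and 96.0 CPM in wildtype, where the ranges overlapped (-0.08 ± 0.05 SE). Nectin2, a broadly expressed nectin, had 81.0, 76.2, 84.2 and 79.4 CPM against 78.1, 78.8, 86.5 and 85.2 CPM in wildtype, also overlapping (-0.03 ± 0.05 SE), and Nectin4, a nectin of skin and placenta, had -0.19 ± 0.17 (SE). Without the wildtype libraries 1 and 3, Nectin1 was at -0.03 and Nectin4 at -0.07. Per kb the order in every library was Nectin2, Nectin1, Nectin3 and Nectin4.

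Libraries of a group differed among themselves in a shared way. Wildtype library 3 held the highest CPM of its group for 22 of the 35 tested genes (62.9%, against 24.8% of all tested genes), and library 4 labelled knockout held it for 24 (68.6%, against 32.1%). The median deviation of the 35 genes from the group mean was 0.09 in library 4 labelled knockout and 0.11 in wildtype library 3 on the log2 scale, and -0.10 in wildtype library 2, each larger than the median difference of -0.07 between the groups. The mean log2 CPM of the 18 epithelial genes was 4.49, 4.57, 4.57 and 4.70 in the libraries labelled knockout and 4.601, 4.51, 4.76 and 4.69 in wildtype, so library 4 labelled knockout and wildtype library 3 were again the highest of their groups. How far epithelial content accounts for the shared deviation was not tested.

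**Figure D4:**
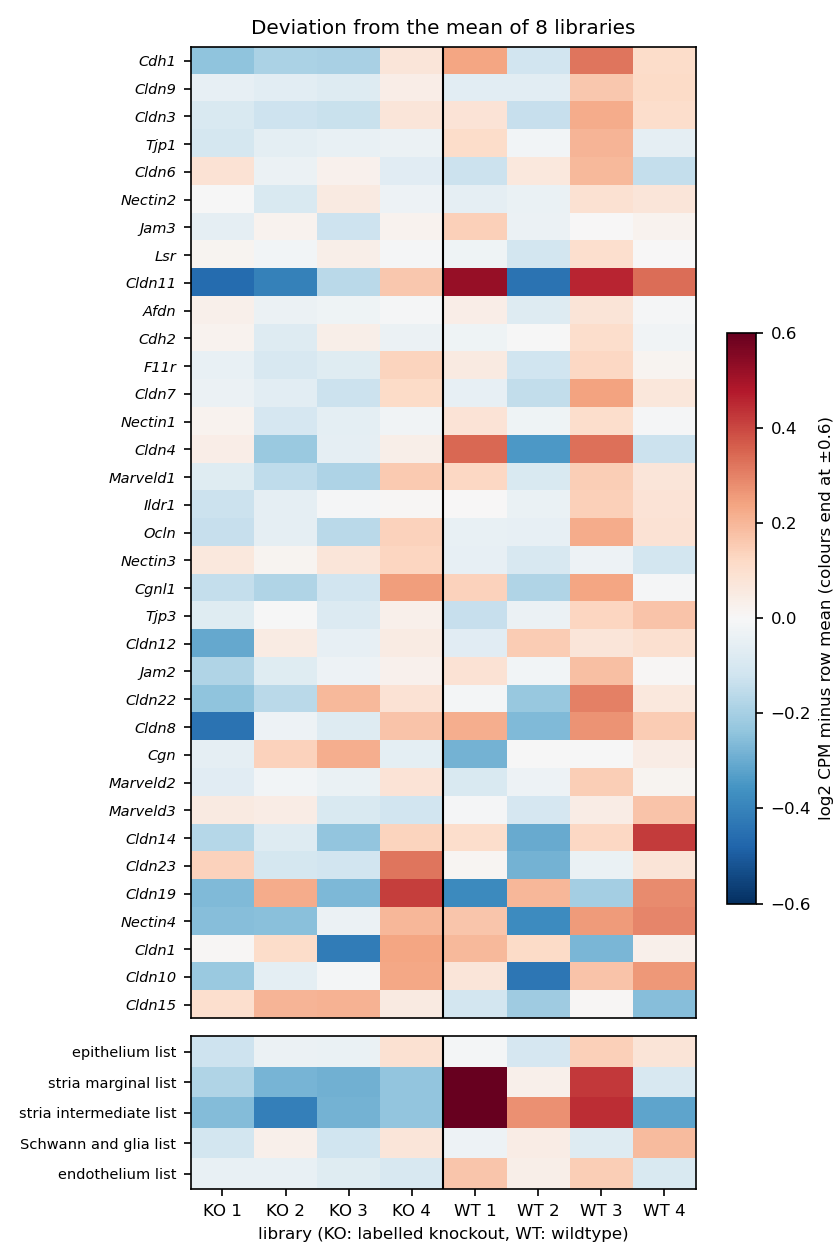
Log2 CPM of the 35 tested genes in each library minus the mean of the 8 libraries (upper panel, genes in order of level per kb) and the same for the mean of 5 marker lists (lower panel), with libraries labelled knockout (KO) left of the line and wildtype (WT) right of it; colours end at 0.6 either way. Library 4 labelled knockout is above the mean for 26 genes, wildtype library 3 for 30 and wildtype library 4 for 26, while the stria lists are reddest in the wildtype libraries 1 and 3.

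Partner genes of the junctions gave no call by edgeR's test either. Of 16 tested catenin and actin linker genes, 0 changed, with a median of -0.07 and 14 below 0. At an unadjusted p under 0.05, 3 (18.8%) were lower and 0 higher, against 2.78% lower and 4.76% higher of all tested genes. The lowest p belonged to Ablim1, an actin-binding LIM protein (log2 fold change -0.12 ± 0.05 SE). None of 19 polarity complex genes changed (median -0.03; 0 at an unadjusted p under 0.05; lowest p for the angiomotin relative Amotl2 at -0.17 ± 0.08), and none of 18 other tight junction genes did (median -0.04; 0 at an unadjusted p under 0.05; lowest p for the scaffold gene Magi1 at 0.15 ± 0.08). Among 10 other cadherin and nectin-like genes 0 changed (median -0.02; 0 at an unadjusted p under 0.05; lowest p for Cdh11 at -0.09 ± 0.06).

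Desmosomes, the spot junctions anchored to keratin, also held 0 changed genes of 11 tested, with a median of -0.01. At an unadjusted p under 0.05 there was 1 (9.09%, against 7.55% of all tested genes). The lowest p among these 5 partner lists was that of Pkp1, a plakophilin of desmosomal plaques, which had 2.54, 4.22, 3.14 and 3.22 CPM in the libraries labelled knockout and 6.85, 4.40, 5.97 and 5.17 CPM in wildtype. Its groups did not overlap, and its log2 fold change was -0.77 ± 0.18 (SE; adjusted p = 0.338 in edgeR's test). Beside these lists, the 18 epithelial genes had a median of -0.08, with 0 changed by edgeR's test and 1 (5.56%) at an unadjusted p under 0.05.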

How the data were processed

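RNA was purified with RNeasy, ribosomal RNA was removed and NEBNext Ultra II was used to build the libraries, per the labels' protocols. Per the submitters' processing notes the build was GRCm39 and the tools were HISAT2 2.2.1, cutadapt 4.3, FastQC 0.12.1, featureCounts and DESeq2. Not given in the sources used here were the strandedness used in counting, the handling of multi-mapped reads and the gene models. Per the file headers, the authors' tables hold whole-number counts for each gene and library; the mean and SD of these per group and a normalized mean signal, also deposited by the authors, were not used. The authors' deposited DESeq2 table holds, per the file headers, log2 fold changes with errors, Wald statistics (a score) and p-values, raw and adjusted. Its direction is not stated there. Its values equal those of DESeq2 run here as labelled knockout over wildtype, such as -0.472 for Cldn11. Its log2 fold change has the sign of the edgeR fit below for 34 of 35 members.

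From the counts, 20581 of 41079 genes passed edgeR's filterByExpr (minimum count 10) and were fitted with edgeR 4.0.16 in R 4.3.3 (TMM scaling, quasi-likelihood test, genotype as the single factor, Benjamini-Hochberg adjustment over all tested genes, threshold 0.05). Tables were joined by gene symbol and columns assigned by the library names in the labels. SE is that of the fit, and 95% intervals use its degrees of freedom. Exon lengths are unions over GENCODE M21 (GRCm38, an older build than the authors'; 83.3% of tested genes and 37 of 37 members matched), so levels per kb are approximate. Upstream sequences are RefSeq on GRCm38.p6. List scores are means of log2(CPM + 0.5). Members and lists were chosen with earlier results of these data known, so no set was tested. CPM per library is given for members with an adjusted p under 0.05, groups that do not overlap, the 10 smallest p, the 10 highest levels per kb and 6 deafness genes, and of each partner list, the lowest p. Cldn4, Cldn19 and Cdh2 were added after their values were seen. The tests were also tried on simulated data, with the outcome not given here, so that trial backs none of the values above. Alternatives were other scalings and filters, DESeq2 1.42.0, limma-voom (limma 3.58.1), the replicate number as a block, stria or epithelium score as a covariate, and left-out libraries. No pair of libraries within a group agreed within sampling noise (lowest chi-square per degree of freedom 9.85).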

Additional observations from a re-analysis of the deposited data

Results flagged for a closer look

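In 4 of 70 groups of 4 libraries, a library stood apart by Dixon's test, where chance gives about 1 in 20 (3.5). Library 4 labelled knockout held 75.4 CPM of Cgnl1 against 55.8 to 58.4 CPM in the other 3 of its group, and 317 CPM of Cdh1 against 255 to 264 CPM. Wildtype library 3 held 166 CPM of Cdh2 against 152 to 154 CPM, and wildtype library 1 held 25.6 CPM of Cgn where the remaining 3 held 31.2 to 32.3 CPM.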

How the results depend on the processing

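Across 18 alternative fits, 0 of the genes were called in either direction, also at adjusted p thresholds of 0.01 and 0.1, and their median log2 fold change lay between -0.11 and -0.03, and between -0.11 and -0.04 with single libraries left out. Of 628 single values, 47 had the other sign, over 17 of 35 genes, 0 of them called. The 19 genes called among all tested became 36 with no filter on low counts, 83 in DESeq2, 7 with the stria score as a covariate, 9 without the wildtype libraries 1 and 3, 10 at a threshold of 0.01 and 11 to 27 with single libraries left out; the cause was not tested. Same-numbered libraries did not deviate together (correlations of 0.155, 0.275, -0.344 and -0.161), and with the replicate number as a block 15 genes were called, 0 of them in the set. The marginal cell mean did not overlap between the groups, so a stria covariate cannot be separated from the label. With the stria score as a covariate the log2 fold change had the other sign for Cldn1 (0.00307), Cldn4 (0.29), Cldn19 (-0.37), Tjp1 (0.00615), Cgn (-0.0678), Cgnl1 (0.0821), F11r (0.0357), Jam3 (0.000866), Nectin1 (0.000919) and Afdn (0.0386). Without the wildtype libraries 1 and 3 it did for Cldn4 (0.19), Cldn7 (0.0112), Cldn10 (0.13), Cldn19 (-0.19), Cldn22 (0.0638), Cgnl1 (0.0584), F11r (0.0336) and Afdn (0.0323). With the epithelium score it did for Cldn7 (0.0125), Cldn10 (0.19), Cldn22 (0.0443), Marveld2 (0.019) and F11r (0.0104), in limma-voom for Cldn10 (0.0252), and for Cldn6 with no filter (-0.00334) and in DESeq2 (-0.00392). With single libraries left out the log2 fold change ran from -0.16 to 0.12 for Cldn1, -0.0439 to 0.0715 for Cldn6, -0.12 to 0.0151 for Cldn7, -0.32 to 0.0916 for Cldn10, -0.0868 to 0.17 for Cldn19, -0.16 to 0.0384 for Cldn22, -0.058 to 0.025 for Marveld2, -0.0214 to 0.0509 for Lsr, -0.0477 to 0.00255 for Cdh2 and -0.0493 to 0.00357 for Afdn. Depth limits Cldn2 and Cldn18, which had too few counts to be tested, and Cldn10 and Cldn15, whose 95% intervals reach past 1.5-fold.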

Other observations

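Nectin3 and Nectin1, partners across the border of hair and supporting cells, were also set against each other within each library, a ratio chosen after their values were seen and not tested. Per kb, Nectin3 stood at 0.534, 0.562, 0.569 and 0.576 of Nectin1 in the libraries labelled knockout and at 0.472, 0.493, 0.471 and 0.482 in wildtype, so the groups did not overlap. Nectin3 alone already did not overlap between the groups, so its ratio is not independent of that result. Of 7 such ratios between members computed, that of Lsr to Ildr1 likewise did not overlap. It stood at 2.14, 1.99, 1.99 and 1.92 in the libraries labelled knockout and at 1.90, 1.84, 1.88 and 1.83 in wildtype. The limit given above for Lsr, an antisense transcript over part of its exon length, holds here too. How often ratios of other gene pairs do not overlap was not computed, so these cases show nothing particular to the set. The ratio of Cldn6 to Cldn9 ran from 0.626 to 0.742 in the libraries labelled knockout and from 0.563 to 0.733 in wildtype, overlapping.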
